A study of Mus musculus with 18 samples.

Results

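A set of 10 genes best known from developing granulocytes was followed in cultures of mouse bone-marrow-derived macrophages (BMDMs), which are macrophages grown from bone marrow cells. They were Mpo, Elane, Prtn3 and Ctsg of the azurophil granules, Ltf, Camp, Ngp and Mmp8 of the specific and gelatinase granules, and S100a8 and S100a9 of the cytosol. These 10 of the 22598 genes in each deposited table were picked because several of them were low when TNF or LPS was added to IFNg, so the differences of those additions from IFNg are given below as a description with no test. RNA sequencing covered 6 groups of 3 libraries, all of wild-type (WT) BMDMs after 18 h. The groups were interferon-gamma (IFNg) with tumour necrosis factor (TNF), IFNg with lipopolysaccharide (LPS), IFNg with hypoxia, IFNg with interleukin-1 beta (IL1b), IFNg alone, and a control whose handling the labels do not describe further. TNF, LPS, hypoxia and IL1b below name the groups that received them together with IFNg, since none was given without it. Doses, the oxygen level, the growth factor, and the strain, sex and age of the mice are not given in the labels. Nor do the labels say whether replicate libraries came from different mice or culture dishes, and the p-values below therefore refer to a spread between samples that may be technical only.

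Neutrophils fill their granules in waves as they mature in the bone marrow. Promyelocytes make the azurophil proteins, which are myeloperoxidase (Mpo) and the serine proteases neutrophil elastase (Elane), proteinase 3 (Prtn3) and cathepsin G (Ctsg). Myelocytes and later stages make the specific and gelatinase granule proteins, among them lactoferrin (Ltf), the cathelicidin CRAMP (Camp), the cathelin-like neutrophilic granule protein of the mouse (Ngp) and the neutrophil collagenase (Mmp8). S100a8 and S100a9 form the calcium-binding dimer calprotectin, which fills the cytosol of neutrophils and is also made by monocytes. Mature macrophages are not a usual source of azurophil proteases, and the bone marrow from which BMDMs are grown is rich in granulocyte precursors. In RNA from whole cultures, fewer cells of a type and less RNA per cell cannot be told apart.

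The 10 genes were rare in these libraries. Library totals ran from 12270565 to 20952799 counts, and the 10 genes together took between 0.000945 and 0.02% of them. CPM below is the count of a gene scaled to a common library size with TMM factors, and 3 counts in a library corresponded to 0.151 to 0.255 CPM. Several markers of mature neutrophils were at or near 0. Stfa1, Stfa2, Stfa2l1 and BC100530 had no count in any library. Retnlg had at most 6 counts in a group and Ly6g, the standard surface marker of mouse neutrophils, at most 9. Other neutrophil genes were higher, with IFNg means of 6.45 CPM for Padi4, 8.12 CPM for Hdc and 15.3 CPM for Clec4d. Csf3r, the receptor for granulocyte colony-stimulating factor that monocytes and macrophages carry too, averaged 97.9 to 174 CPM in the groups. The 12 macrophage identity genes, among them Csf1r, Adgre1 and Cd68, summed to 19800 to 33200 CPM in every library. Transcripts of granule genes were thus present with some markers of mature neutrophils, Ly6g among them, at or near 0. Ms4a3, a marker of granulocyte and monocyte precursors, was also low, at a mean of 0.488 CPM in IFNg libraries. Which cells made the transcripts was not tested.

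The deposited RPKM values, which scale counts to gene length and library total, allow the genes to be set beside each other. In IFNg libraries S100a9 was highest at 70.3 ± 5.52 RPKM (SD, n = 3), followed by S100a8 at 33.5 ± 3.78, Ngp at 13.1 ± 4.94 and Ltf at 6.02 ± 0.675. The others stood between 0.853 ± 0.505 RPKM for Ctsg and 3.25 ± 0.855 RPKM for Camp, and the steps from Camp to Mpo, Elane, Prtn3 and Mmp8 were each smaller than the SD of the higher gene. In control libraries the order was the same for the top 3, with S100a9 at 63 ± 19.1, S100a8 at 28.8 ± 5.63 and Ngp at 13.8 ± 9.34 RPKM. Mmp8 came next there at 12.4 ± 3.08 RPKM, within the SD of Ngp.

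Summed over the 10 genes, levels were lowest in TNF libraries and next lowest in LPS libraries. The 10 genes together reached 12.9 ± 2 CPM in TNF, 36.6 ± 7.83 in LPS, 76.4 ± 16.1 in hypoxia, 91.7 ± 8.35 in IL1b, 119 ± 11.4 in IFNg and 132 ± 32.2 CPM in control libraries (SD, n = 3 each). The 4 azurophil genes stood lowest after TNF and LPS, where their sums were 3.18 and 2.83% of the IFNg mean. The 4 specific granule genes summed to 5.38% of the IFNg mean in TNF and 31.6% in LPS. Mmp8 alone gave 1.74 of the 2.26 CPM of that sum in TNF and 7 of the 13.2 CPM in LPS. Its LPS mean was above its IFNg mean of 4.44 CPM. S100a8 with S100a9 summed to 17.2% of the IFNg mean in TNF and 38.7% in LPS. For each class the hypoxia and IL1b means lay between those of LPS and IFNg, in no single order. The azurophil sum was at 30.8% of the IFNg mean in hypoxia and 47.5% in IL1b, the specific granule sum at 70.2 and 65%, and the calprotectin sum at 70.5 and 95.2%. In control libraries the azurophil and specific granule sums were at 134 and 147% of the IFNg mean and the calprotectin sum at 79.4%. The specific granule excess was Mmp8, with means of 27.6 CPM in control and 4.44 CPM in IFNg libraries. The control and IFNg means were 21.5 and 22.8 CPM for Ltf, 1.48 and 2.99 for Camp and 11 and 11.7 for Ngp. Mpo, at 15.9 and 10.5 CPM with libraries that overlapped, gave most of the azurophil excess. In TNF and LPS libraries no more than 8 of the 10 genes had a count in any library, against all 10 in every IFNg and control library.

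**Figure D1:**
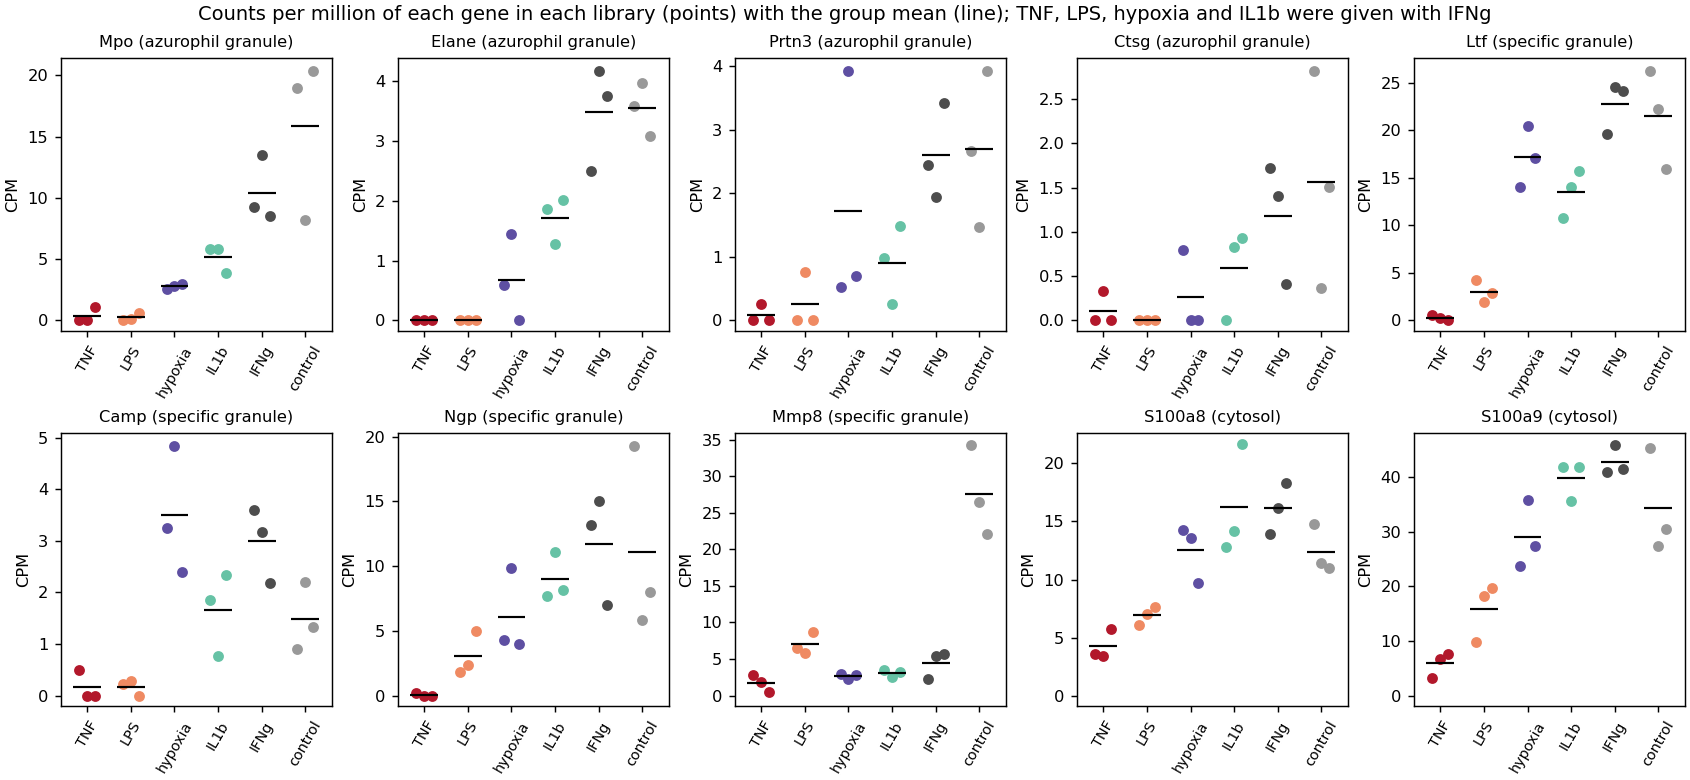
Each panel shows 1 gene in CPM (linear axis from 0), with a point for each of the 3 libraries of a group and a line at the group mean. The TNF and LPS means are the lowest for 9 genes, while Mmp8 is highest in control libraries, at 22.1 to 34.2 CPM.

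The azurophil genes shared a pattern in which TNF and LPS libraries were at or near 0. Mpo, which makes hypochlorous acid, stood at 0, 0 and 1.1 CPM in TNF, 0, 0.11 and 0.627 in LPS, 2.58, 2.81 and 3.01 in hypoxia, 5.86, 5.87 and 3.89 in IL1b, 9.28, 13.5 and 8.54 in IFNg, and 19, 8.19 and 20.4 CPM in control libraries. Every hypoxia and IL1b library lay below every IFNg and control library and above every TNF and LPS library, while IFNg and control overlapped. Elane, the neutrophil elastase, had no count in any of the 6 TNF and LPS libraries. It stood at 0.596, 1.45 and 0 CPM in hypoxia, 1.86, 1.28 and 2.02 in IL1b, 2.5, 4.18 and 3.76 in IFNg, and 3.58, 3.97 and 3.09 CPM in control libraries. With 3 counts over the group as the floor, Elane was at least 53.3-fold lower in TNF and at least 57.8-fold lower in LPS than in IFNg. This floor covers counting error only, not the spread between libraries.

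Prtn3, the protease next to Elane on the chromosome, stood at 0, 0.263 and 0 CPM in TNF, 0, 0.769 and 0 in LPS, 0.53, 3.92 and 0.695 in hypoxia, 0.986, 0.255 and 1.48 in IL1b, 2.45, 1.94 and 3.42 in IFNg, and 2.67, 1.47 and 3.93 CPM in control libraries. The second hypoxia library lay as high as the highest control library, while the other two were lower than every IFNg library. Ctsg, the sparsest of the 10, stood at 0, 0.329 and 0 CPM in TNF, 0 in all LPS libraries, 0.795, 0 and 0 in hypoxia, 0, 0.83 and 0.933 in IL1b, 1.72, 1.41 and 0.41 in IFNg, and 2.82, 0.367 and 1.51 CPM in control libraries. Its LPS level was at least 19.6-fold lower than its IFNg level by the same floor. Ctsg passed the filter on low counts through the groups where it was higher, being over the 0.631 CPM cutoff in 7 of the 18 libraries, and Elane was over it in 10.

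The residual counts after TNF and LPS came in clumps. All 14 Mpo counts, 4 Prtn3 counts, 5 Ctsg counts, 9 Camp counts and 4 Ngp counts of the TNF group were in 1 library each, and so were the 14 Prtn3 counts of the LPS group. The fitted log2 fold changes of these genes against IFNg therefore rest on that library. Mpo in TNF stood at -4.96 and Ngp at -6.98 with all libraries, and Ngp had no count without the first TNF library, which leaves no fold change to give. Over the 47 gene and group combinations with enough counts, the variance between replicates was a median of 8.31 times the mean count, so intervals from counting error alone would be too narrow.

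The azurophil genes lie on 3 chromosomes. In mm10 coordinates of GENCODE M21, Mpo is at chr11:87793581-87804413 (+), Prtn3 at chr10:79874476-79883174 (+), Elane at chr10:79886247-79888215 (+) and Ctsg at chr14:56099881-56102574 (-). Prtn3 and Elane are neighbours, with 3072 bases and no other coding gene between them. The bases before the RefSeq starts of these 4 genes are shown because the genes were low together in the same libraries. They come from the RefSeq promoter table (GRCm38.p6), run 5′ to 3′ on the gene's strand from 250 bases before the RefSeq start, and stop before the first base that GENCODE M21 places in an exon. Capitals mark AGGAAGT, the core motif of the myeloid factor PU.1, searched on both strands. The Prtn3 window lies inside the gene as GENCODE M21 places it, because RefSeq starts that gene further downstream. The windows are chr11:87793534-87793580 (+), chr10:79886062-79886246 (+), chr10:79879417-79879613 (+) and chr14:56102575-56102824 (-).
Mpo: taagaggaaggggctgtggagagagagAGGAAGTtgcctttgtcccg
Elane: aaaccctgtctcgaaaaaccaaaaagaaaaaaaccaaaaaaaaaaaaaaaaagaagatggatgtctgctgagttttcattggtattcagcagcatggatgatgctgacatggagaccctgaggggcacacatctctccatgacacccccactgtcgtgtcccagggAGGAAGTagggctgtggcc
Prtn3: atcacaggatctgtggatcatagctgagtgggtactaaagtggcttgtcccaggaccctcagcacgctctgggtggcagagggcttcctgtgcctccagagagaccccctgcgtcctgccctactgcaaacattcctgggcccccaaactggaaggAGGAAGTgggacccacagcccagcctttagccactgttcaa
Ctsg: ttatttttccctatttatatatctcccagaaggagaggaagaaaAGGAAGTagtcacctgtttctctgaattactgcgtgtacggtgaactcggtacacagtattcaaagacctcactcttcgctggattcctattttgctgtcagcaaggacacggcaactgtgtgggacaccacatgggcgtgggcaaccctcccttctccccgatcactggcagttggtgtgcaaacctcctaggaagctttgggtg

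AGGAAGT or its reverse complement ACTTCCT occurred in all 4 azurophil windows, from 223, 84, 94 and 206 bases before the RefSeq starts of Mpo, Elane, Prtn3 and Ctsg, each time on the gene's own strand. Of the other genes, Mmp8 and S100a8 held it on the opposite strand, which made 6 of 10. Over the 32851 promoter windows of 250 bases in the same table, 7.69% held it. The C/EBP motif TTGCNNAA, searched on both strands, occurred in the windows of Ltf, Mmp8, S100a9 and, at 2 places, Ngp, and in 9.56% of all windows. The second Ngp match lies inside an exon of GENCODE M21, and no match of either motif overlapped another. Both motifs were chosen after these windows had been read. A match is a description of the letters, not of a bound site, and Camp, which had neither motif, is only without these letters in this window.

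**Figure D2:**
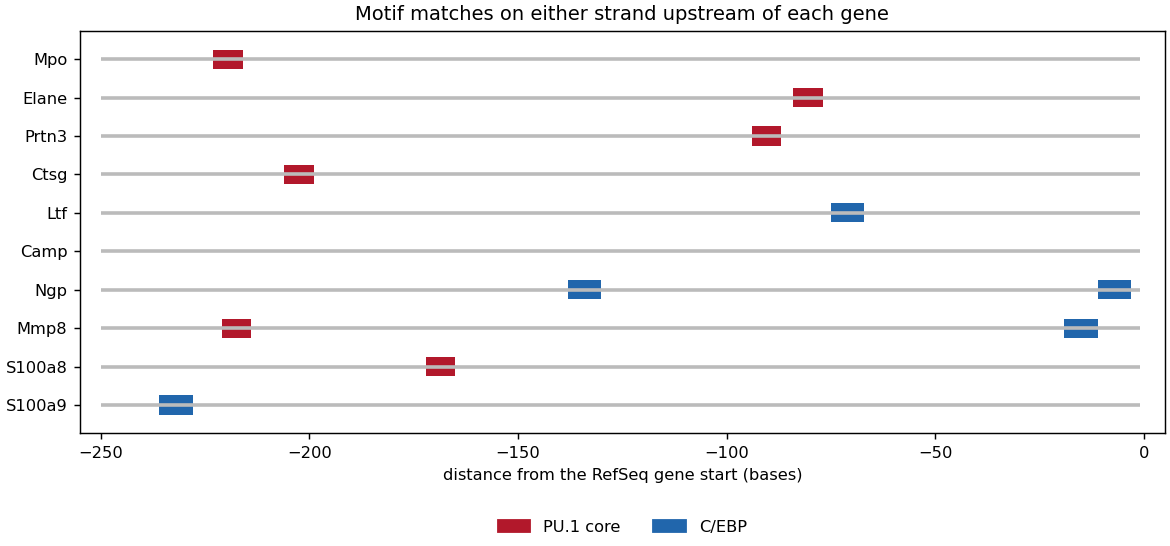
Each grey line is the 250 bases upstream of the RefSeq start of 1 gene, with distance from the start in bases on the horizontal axis. Red boxes are matches of the PU.1 core motif, present in 6 of 10 windows, and blue boxes are matches of the C/EBP motif, present in 4.

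Among the specific granule genes, Ltf, Camp and Ngp were near 0 in TNF libraries, and differed from each other in LPS libraries. Ltf, the iron-binding lactoferrin, stood at 0.556, 0.263 and 0 CPM in TNF, 4.29, 1.92 and 2.86 in LPS, 14, 20.5 and 17.1 in hypoxia, 10.8, 14 and 15.7 in IL1b, 19.6, 24.6 and 24.1 in IFNg, and 26.3, 22.3 and 15.9 CPM in control libraries. Every TNF library was below every LPS library, and every LPS library below every library of the other 4 groups. Ngp, whose protein belongs to the cathelin family, stood at 0.222, 0 and 0 CPM in TNF, 1.85, 2.36 and 4.95 in LPS, 4.31, 9.88 and 4.01 in hypoxia, 7.67, 11.1 and 8.16 in IL1b, 13.2, 15 and 6.97 in IFNg, and 19.3, 5.87 and 7.99 CPM in control libraries. TNF and LPS libraries of Ngp did not overlap with each other or with IFNg.

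Camp, the precursor of the antimicrobial peptide CRAMP, was at 0.5, 0 and 0 CPM in TNF, 0.232, 0.275 and 0 in LPS, 3.25, 4.85 and 2.39 in hypoxia, 1.86, 0.766 and 2.33 in IL1b, 3.6, 3.18 and 2.19 in IFNg, and 0.908, 2.2 and 1.33 CPM in control libraries. Unlike those of Ltf and Ngp, the TNF and LPS libraries of Camp overlapped. Every hypoxia library of Camp was above every control library, but its hypoxia difference from control, a log2 fold change of 1.24 ± 0.96 (SE), did not pass the test (adjusted p = 0.332). Ltf (chr9:111019271-111042767, +), Ngp (chr9:110419747-110423012, +) and Camp (chr9:109847379-109849617, -) lie in the same stretch of chromosome 9, with 8 coding genes between Camp and Ngp and 20 between Ngp and Ltf.

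Mmp8 followed an order of its own among the 10. The neutrophil collagenase stood at 2.83, 1.84 and 0.549 CPM in TNF, 6.55, 5.82 and 8.64 in LPS, 2.98, 2.21 and 2.78 in hypoxia, 3.5, 2.55 and 3.26 in IL1b, 2.29, 5.36 and 5.67 in IFNg, and 34.2, 26.4 and 22.1 CPM in control libraries. Every library that received IFNg was below every control library. Every LPS library was above every IFNg library, whereas the other 9 genes were lower in every LPS library than in every IFNg library. Over the 18 libraries, the log2 CPM of Mmp8 had a Pearson r of 0.521 with the mean profile of the 10 genes, the lowest of all, and Ltf the highest at 0.933. These correlations are a description, since each gene is part of the profile and the libraries of a group share their treatment. Mmp8 is at chr9:7558456-7568485 (+), far from the other 3 on that chromosome. Its upstream window, chr9:7558179-7558428 (+), is shown because it held both motifs, marked in capitals, with the PU.1 core read as ACTTCCT.
Mmp8: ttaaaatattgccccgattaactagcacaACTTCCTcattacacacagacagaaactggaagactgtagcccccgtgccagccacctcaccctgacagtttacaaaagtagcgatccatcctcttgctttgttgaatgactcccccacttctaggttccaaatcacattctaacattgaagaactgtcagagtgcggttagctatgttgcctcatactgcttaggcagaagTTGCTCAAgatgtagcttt

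S100a8 and S100a9 were lower in TNF and LPS libraries but stayed well above the floor. S100a8 stood at 3.61, 3.42 and 5.73 CPM in TNF, 6.08, 7.03 and 7.6 in LPS, 14.3, 13.6 and 9.73 in hypoxia, 12.8, 14.2 and 21.7 in IL1b, 13.9, 16.2 and 18.3 in IFNg, and 14.8, 11.4 and 11 CPM in control libraries. S100a9 stood at 3.28, 6.7 and 7.61 CPM in TNF, 9.73, 18.2 and 19.7 in LPS, 23.8, 35.8 and 27.3 in hypoxia, 41.9, 35.6 and 41.9 in IL1b, 40.9, 45.9 and 41.4 in IFNg, and 45.4, 27.3 and 30.4 CPM in control libraries. For both genes every TNF library was below every LPS library, and every LPS library below every library of the other 4 groups. The genes are neighbours on chromosome 3, S100a8 at chr3:90668978-90670035 (+) and S100a9 at chr3:90692632-90695721 (-), with 22596 bases and no other coding gene between them.

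Against IFNg, then, TNF libraries were lower without overlap for 9 of the 10 genes, all but Mmp8, where 27.2% of the 11563 tested genes were lower in that way. LPS libraries were lower without overlap for 9 genes, where 17.4% of tested genes were, and higher for Mmp8, where 16.3% were. The genes were chosen on these differences, so nothing is read from the counts. The fitted log2 fold changes had a median of -4.39 for TNF, with S100a8 at -1.93, S100a9 at -2.88 and Mmp8 at -1.31 nearest to 0. For LPS the median was -3.09, with S100a8 at -1.22, S100a9 at -1.43 and Mmp8 at 0.66. With the groups at 0 counts set to their bounds the medians were the same, -4.39 and -3.09, and over all tested genes they were -0.05 and 0.

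The other 5 comparisons were tested across all 11563 genes that passed the filter, among them all 10, with edgeR's quasi-likelihood test and Benjamini-Hochberg adjustment at 0.05. Hypoxia and IL1b against control share no library with the differences that chose the genes. In hypoxia libraries, which also received IFNg, Mpo fell to 2.8 ± 0.214 CPM against 15.9 ± 6.69 CPM in control libraries (SD, n = 3 each), a log2 fold change of -2.5 ± 0.73 (SE, adjusted p = 0.00923). Mmp8 fell to 2.66 ± 0.398 CPM in hypoxia libraries against 27.6 ± 6.11 CPM in control libraries, a log2 fold change of -3.37 ± 0.44 (adjusted p = 4.64e-07). All 3 hypoxia libraries were below all 3 control libraries for both genes.

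Elane was lower without overlap as well, but its log2 fold change of -2.38 ± 1 did not pass (adjusted p = 0.0641). The other 7 genes had log2 fold changes between -2.49 ± 1.67 for Ctsg and 1.24 for Camp. With 2 of 10 called lower and none higher in hypoxia against control, where 19.1% of tested genes were called lower and 21% higher, the share was near that of all genes. Hypoxia libraries were lower without overlap for 3 genes and higher for 1, Camp, where 25 and 25.4% of tested genes were. Scaled with the library totals behind the deposited RPKM, which moved the median of all genes by -0.397, hypoxia against control had 5 genes called. Elane was also called by DESeq2 (adjusted p = 0.019) and without the second hypoxia library (adjusted p = 0.0292), Ctsg without the first (adjusted p = 0.0478) and Ngp without the second library of every group (adjusted p = 0.0425).

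IL1b against control gave 1 call. Mmp8 fell to 3.11 ± 0.494 CPM in IL1b libraries, a log2 fold change of -3.14 ± 0.43 from the control mean of 27.6 ± 6.11 CPM (adjusted p = 1.85e-06). Mpo, at 5.21 ± 1.14 CPM in IL1b and 15.9 ± 6.69 CPM in control libraries, had a log2 fold change of -1.6 ± 0.7 that did not pass (adjusted p = 0.101). Of tested genes, 11.8% were called lower in IL1b against control, so 1 of 10 is near that share. IL1b libraries were lower without overlap for Mpo, Elane, Ltf and Mmp8, where 20.5% of tested genes were. With only the IL1b and control libraries in the fit, Mpo and Ltf were called too, 3 genes in all.

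IFNg alone against control also gave 1 call, with libraries that took part in choosing the genes. Mmp8 fell to 4.44 ± 1.87 CPM in IFNg libraries against 27.6 ± 6.11 CPM in control libraries, a log2 fold change of -2.64 ± 0.42 (adjusted p = 1.85e-05), and no other gene of the 10 was without overlap. The share of 1 in 10 equals the 10% of tested genes called lower, and 18.9% of tested genes were lower without overlap. The remaining 9 genes had log2 fold changes from -0.6 ± 0.68 for Mpo to 1.01 ± 0.96 for Camp, with adjusted p from 0.388 to 0.994. Mmp8 was below control in each of the 3 comparisons, which share the control libraries.

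Against IFNg alone, neither IL1b nor hypoxia gave a call among the 10. Both comparisons use the IFNg libraries that took part in choosing the genes, which were picked for being high there, so nothing is read from how many were lower. For IL1b against IFNg, edgeR called 0 genes of the 10, DESeq2 0, and 1 had an unadjusted p under 0.05. That gene was Ltf, at 13.5 ± 2.46 CPM in IL1b and 22.8 ± 2.72 CPM in IFNg libraries, a log2 fold change of -0.75 ± 0.33 (adjusted p = 0.893). In the same comparison 0.303% of tested genes were called in either direction. IL1b libraries were lower without overlap for Mpo, Elane, Prtn3 and Ltf, 4 of 10, where 6.7% of tested genes were. Mpo averaged 5.21 ± 1.14 CPM in IL1b and 10.5 ± 2.7 CPM in IFNg libraries, and its log2 fold change of -1 ± 0.69 had an adjusted p of 1.

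For hypoxia against IFNg, edgeR called 0 of the 10 and DESeq2 1, Elane, and 3 had an unadjusted p under 0.05. These were Mpo at -1.9 ± 0.72 (adjusted p = 0.061), Elane at -2.35 ± 1 (adjusted p = 0.0943) and S100a9 at -0.56 ± 0.26 (adjusted p = 0.124) on the log2 scale, and each was lower without overlap. Of tested genes, 25.2% were called in either direction and 20.9% were lower without overlap. The count was 2 with the library totals behind the deposited RPKM, Mpo and S100a9, and 4 with only the hypoxia and IFNg libraries in the fit, with Elane and Ngp added. It was 1 without the second hypoxia library, Elane, and 1 without the third library of every group, Mpo.

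**Figure D3:**
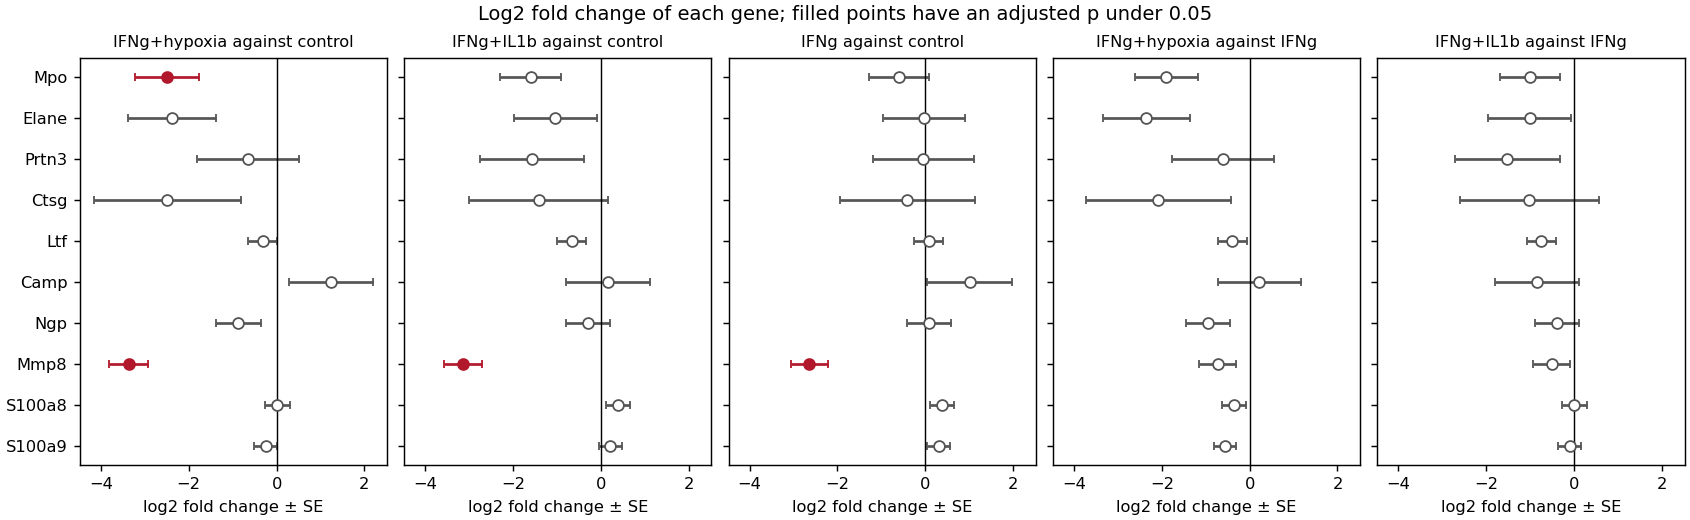
Each panel is 1 comparison, with the log2 fold change of each gene on the horizontal axis and bars of 1 SE from the fit. Filled red points passed at an adjusted p under 0.05: Mmp8 in the 3 comparisons with control, between -3.37 and -2.64, and Mpo in hypoxia against control, at -2.5.

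The lists of other granulocyte genes did not move as a block with the 10. These lists also hold genes with high counts in these macrophage cultures. In IFNg libraries Lyz2, also on the macrophage identity list, averaged 3170 ± 478 CPM, Cybb 1250 ± 160 CPM and Cyba 865 ± 22.7 CPM. Plac8 averaged 9.12 ± 1.47 CPM in control and 351 ± 18.1 CPM in IFNg libraries. Counts over a list are therefore not counts of genes restricted to granulocytes. Over all tested genes, 22.1% rose and 22.6% fell in TNF against IFNg, and 10.2% rose and 10.1% fell in LPS against IFNg. Of 8 tested companions made with the azurophil proteins or by granulocyte precursors, 3 rose and 2 fell in TNF against IFNg, with a median log2 fold change of -0.17. In LPS against IFNg 1 rose and 2 fell, with a median of 0.18. Igfbp4 fell in TNF against IFNg by 3.64 ± 0.5 on the log2 scale (adjusted p = 2.6e-06) and Plac8 by 1.1 ± 0.14 (adjusted p = 4.19e-07). Haptoglobin (Hp), an acute-phase protein, rose to 37.2 ± 9.4 CPM in TNF against 3.71 ± 1.35 CPM in IFNg libraries (adjusted p = 1.71e-06), and Gstm1, a glutathione transferase, by 2.33 ± 0.17 (adjusted p = 1.12e-11). Ms4a3 and Prss57, which mark granulocyte and monocyte precursors, had no count in TNF libraries. In IFNg libraries they averaged 0.488 ± 0.501 and 0.228 ± 0.395 CPM. Ms4a3 did not pass the test in TNF against IFNg (adjusted p = 0.0624), and Prss57, which was not tested, had no count in control libraries either.

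Of 18 tested companions of the specific and gelatinase granules, 6 rose and 7 fell in TNF against IFNg, and 4 rose and 2 fell in LPS against IFNg, with medians of -0.46 and 0.04. Olfm4, a marker of a subset of neutrophils, had no count in TNF libraries and averaged 1.13 ± 0.625 CPM in IFNg libraries (adjusted p = 0.0114). Fcnb, the ficolin of granulocyte precursors, had none in TNF or LPS libraries and averaged 0.791 ± 1.25 CPM in IFNg libraries (adjusted p = 0.0243 for TNF and 0.0437 for LPS). Its IFNg libraries ran from 0 to 2.24 CPM, and without the second of them neither call was kept (adjusted p = 0.303 for TNF and 0.419 for LPS). Each call was also lost when any 1 TNF or LPS library was left out (adjusted p = 0.0595 to 0.122). Slpi, an inhibitor of elastase and cathepsin G, stood at 108 ± 25.6 CPM in TNF, 7.75 ± 1.72 CPM in LPS and 0.273 ± 0.0748 CPM in IFNg libraries (adjusted p = 4.6e-06 for TNF and 0.00276 for LPS). Orm1, an acute-phase protein, rose to 5.93 ± 1.58 CPM in TNF against 0.0684 ± 0.118 CPM in IFNg libraries (adjusted p = 0.00465). Chil3, a chitinase-like protein, fell by 2.42 ± 0.34 on the log2 scale in TNF (adjusted p = 1.45e-06) and by 1.83 ± 0.33 in LPS (adjusted p = 0.000135). Lcn2, the neutrophil gelatinase-associated lipocalin, was singled out after its values were seen. It fell by 1.58 ± 0.42 in TNF (adjusted p = 0.00296), at 3.62 ± 1.42 CPM in TNF and 10.8 ± 2.1 CPM in IFNg libraries, and stood at 9.88 ± 2.64 CPM in LPS libraries.

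The list of neutrophil surface and cytosol genes, some of them shared with activated macrophages, included large rises and smaller falls. Of 13 tested, 6 rose and 3 fell in TNF against IFNg and 4 rose and 1 fell in LPS against IFNg. The genes that fell in TNF were named after their values were seen. They were Padi4 by 1.98 ± 0.44 on the log2 scale (adjusted p = 6e-04), S100a6 by 0.86 ± 0.25 (adjusted p = 0.0114) and Alox5ap by 0.43 ± 0.11 (adjusted p = 0.00293). Alox5ap also fell in LPS, by 0.32 ± 0.11 (adjusted p = 0.045, near the threshold). The formyl peptide receptor Fpr2 stood at 231 ± 42.1 CPM in TNF, 89.9 ± 11.8 CPM in LPS and 2.38 ± 0.685 CPM in IFNg libraries (adjusted p = 2.78e-13 for TNF and 4.69e-11 for LPS). The lectin receptor Clec4d stood at 760 ± 75.5 CPM in TNF, 459 ± 24.7 CPM in LPS and 15.3 ± 2.28 CPM in IFNg libraries (adjusted p = 5.97e-20 and 2.55e-18). Fpr1 rose by 5.61 ± 0.51 on the log2 scale in TNF (adjusted p = 1.2e-09) and by 3.48 ± 0.48 in LPS (adjusted p = 4.92e-06). Trem1, an amplifying receptor of myeloid cells, rose by 5.22 ± 1.29 in TNF (adjusted p = 0.00525).

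Among 9 tested genes of the list for granulocyte lineage factors, 1 rose and 3 fell in TNF against IFNg. The list is mixed. Per3 is a circadian clock gene rather than a lineage factor. Irf8 was already higher with IFNg alone, at 527 ± 25.7 CPM in IFNg and 165 ± 19.8 CPM in control libraries (adjusted p = 3.3e-12). Cebpa, which drives entry into the granulocyte and monocyte lineage, fell by 1.75 ± 0.61 on the log2 scale (adjusted p = 0.0208, but 0.0939 without the first TNF library and 0.0862 without the second IFNg library), and Per3 by 2.8 ± 0.74 (adjusted p = 0.00309). Myb, a factor of progenitor cells, had no count in TNF libraries and averaged 0.87 ± 0.892 CPM in IFNg libraries (adjusted p = 0.0338). The Myb call was lost without the second IFNg library (adjusted p = 0.111) and without any 1 TNF library (adjusted p = 0.0779 to 0.087). Cebpb, which takes part in inflammatory and emergency granulopoiesis, rose by 2.94 ± 0.63 (adjusted p = 0.00105). In LPS against IFNg 1 of the 9 was called, Runx1, which fell by 1.02 ± 0.2 (adjusted p = 0.000417). In hypoxia against control 1 rose and 2 fell: Irf8 rose by 2.37 ± 0.12 (adjusted p = 1.86e-15), Cebpa fell by 2.18 ± 0.6 (adjusted p = 0.00486) and Per3 fell by 1.68 ± 0.67 (adjusted p = 0.0493), a call lost without any 1 of the 6 libraries (adjusted p = 0.0787 to 0.171).

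Genes that activate, store or restrain the granule proteases were changed in the same libraries. Of 9 tested, 5 rose and 2 fell in both TNF and LPS against IFNg. Slpi, given above, had the largest difference in both. Serpinb1a, the inhibitor of neutrophil serine proteases, rose by 4.71 ± 0.68 on the log2 scale in TNF (adjusted p = 2.1e-06) and by 2.93 ± 0.64 in LPS (adjusted p = 0.00131). Srgn, the proteoglycan that holds proteases in granules, rose by 1.86 ± 0.12 in TNF (adjusted p = 7.94e-13), and Serpinb6b by 1.76 ± 0.19 in TNF (adjusted p = 2.1e-08) and 1.23 ± 0.19 in LPS (adjusted p = 2e-05). The genes that fell in both were Timp2, an inhibitor of metalloproteinases, by 1.53 ± 0.24 in TNF (adjusted p = 1.76e-05) and 1.24 ± 0.24 in LPS (adjusted p = 0.000525), and Serpina3f, by 0.55 ± 0.12 in TNF (adjusted p = 0.000384) and 0.39 ± 0.12 in LPS (adjusted p = 0.0198). Serpina3f was named after its values were seen. Ctsc, the peptidase that activates elastase, proteinase 3 and cathepsin G, was at 11000 ± 917 CPM in TNF and 4560 ± 67.4 CPM in IFNg libraries (adjusted p = 1.1e-10); it lies outside the rule for named genes and was chosen after its values were seen.

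**Figure D4:**
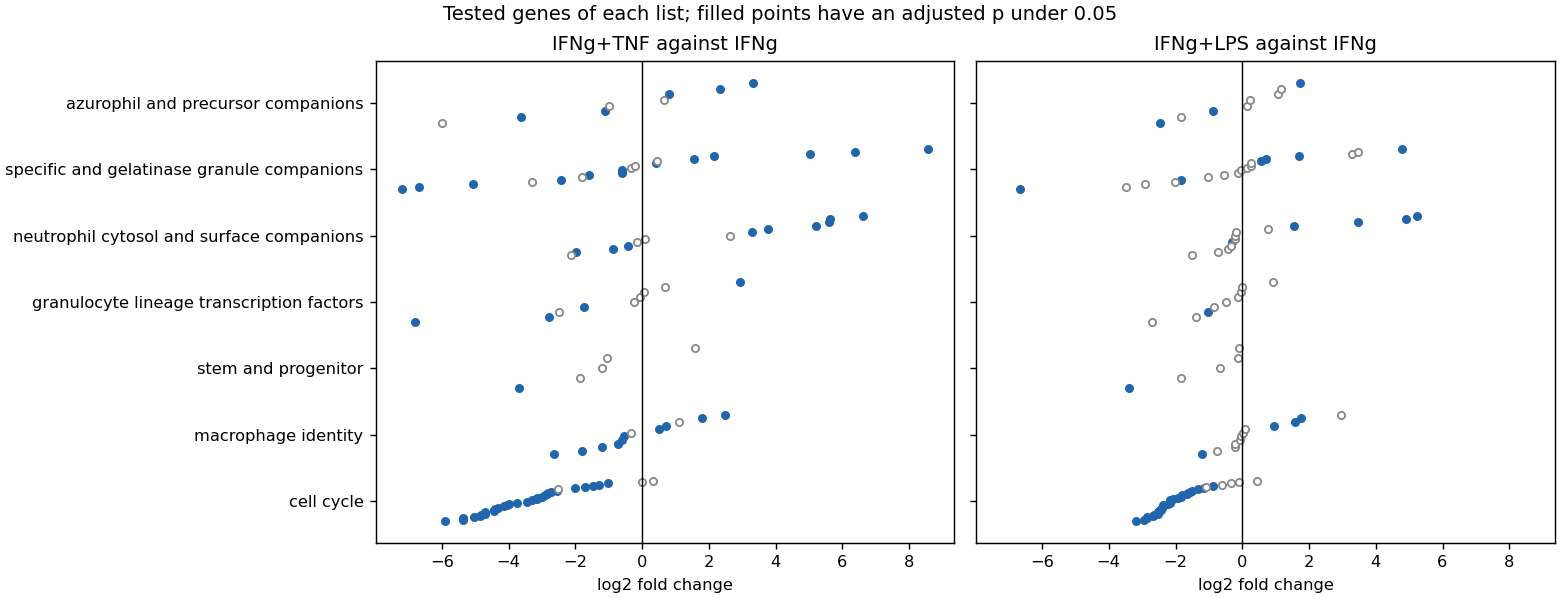
Each point is 1 tested gene of a list, with its log2 fold change against IFNg in TNF (left) and LPS (right), and filled points have an adjusted p under 0.05. Companions of the granule genes fall on both sides of 0, while 31 and 29 of 34 cell cycle genes passed below 0; values of genes at 0 in a group depend on the fit.

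Cell cycle genes were lower in the same libraries, while lists for other marrow lineages differed in direction. The 34 cell cycle genes summed to 323 to 408 CPM in TNF, 638 to 716 in LPS, 498 to 637 in hypoxia, 1980 to 2340 in IL1b, 2200 to 2620 in IFNg and 3630 to 4380 CPM in control libraries. For the cell cycle genes the highest hypoxia sum, 637 CPM, was barely below the lowest LPS sum, 638 CPM. For the 10 granule genes hypoxia libraries, at 67.1 to 95 CPM, were above LPS libraries, at 28.7 to 44.4 CPM. Of the 34, 31 fell in TNF against IFNg, 29 in LPS against IFNg, 30 in hypoxia against IFNg, where 11.8% of tested genes fell, and 31 in hypoxia against control. Of 3 tested B cell markers, 2 fell in both TNF and LPS against IFNg. All 10 listed B cell markers summed to 7.5 to 13.5 CPM in TNF, 63.3 to 110 in LPS and 250 to 283 in hypoxia. Their sums were 452 to 478 CPM in IL1b, 505 to 579 in IFNg and 575 to 750 CPM in control libraries. Nearly all of this was Ighm, the immunoglobulin heavy chain constant gene, and Ms4a1 and Pax5 had no count in any group. The stem and progenitor markers summed to 3.39 to 7.61 CPM in TNF, 2.38 to 5.92 in LPS, 6.02 to 8.51 in hypoxia, 6.63 to 9.33 in IL1b, 8.44 to 10 in IFNg and 7.76 to 12.3 CPM in control libraries, with Hoxa9 at 0 in all groups. Of 5 tested, 1 fell in TNF and in LPS against IFNg, the progenitor marker Cd34, by 3.69 ± 1.19 (adjusted p = 0.0127) and 3.39 ± 1.16 (adjusted p = 0.037). The LPS call was lost without any 1 IFNg library and without each of 2 LPS libraries (adjusted p = 0.0501 to 0.115). Against IFNg the megakaryocyte list ran the other way, with sums of 113 to 134 CPM in TNF, 69.8 to 93.5 in LPS and 45.7 to 62.9 CPM in IFNg libraries. It was highest in control libraries, at 198 to 261 CPM, and stood at 114 to 127 in hypoxia and 55.8 to 71.8 CPM in IL1b. Most of the TNF, LPS and IFNg sums was Vwf, also made by endothelial cells. Vwf was the 1 called gene of 5 tested in TNF against IFNg. It rose to 97.1 ± 6.23 CPM in TNF against 29.9 ± 5.31 CPM in IFNg libraries (adjusted p = 1.02e-08). The T and NK cell list summed to 202 to 302 CPM in TNF, 146 to 244 in LPS and 132 to 142 CPM in IFNg libraries, with Cd3e, Cd3d and Cd3g at 0 in all groups. Of its 3 tested genes the interleukin-7 receptor Il7r and Cd247 rose and Klrk1 fell in TNF against IFNg.

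The 12 macrophage identity genes did not follow that order. They summed to 19800 to 22200 CPM in TNF, 20100 to 24800 in LPS, 29800 to 31300 in hypoxia, 21600 to 24000 in IL1b, 22000 to 25000 in IFNg and 26800 to 33200 CPM in control libraries. In TNF against IFNg 4 rose and 6 fell, and in LPS against IFNg 3 rose and 1 fell. The 10 monocyte markers summed to 409 to 578 CPM in TNF, 357 to 669 in LPS, 544 to 721 in hypoxia, 632 to 711 in IL1b, 742 to 839 in IFNg and 477 to 578 CPM in control libraries. These sums join opposite moves. Against IFNg, 3 rose and 1 fell in TNF, and 1 rose and 1 fell in LPS. The fall was Ccr2 in both, at 30.2 ± 7.97 CPM in TNF, 131 ± 42.4 in LPS and 497 ± 31.7 CPM in IFNg libraries (adjusted p = 8.65e-13 and 1.23e-07). The rises were Treml4, Ms4a4c and Nr4a1 in TNF and Treml4 in LPS. Ms4a4c stood at 402 ± 71.6 CPM in TNF and 250 ± 35.4 CPM in IFNg libraries (adjusted p = 0.0113). What part dividing, lymphoid, progenitor or monocyte cells have in the levels of the 10 genes was not tested.

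**Figure D5:**
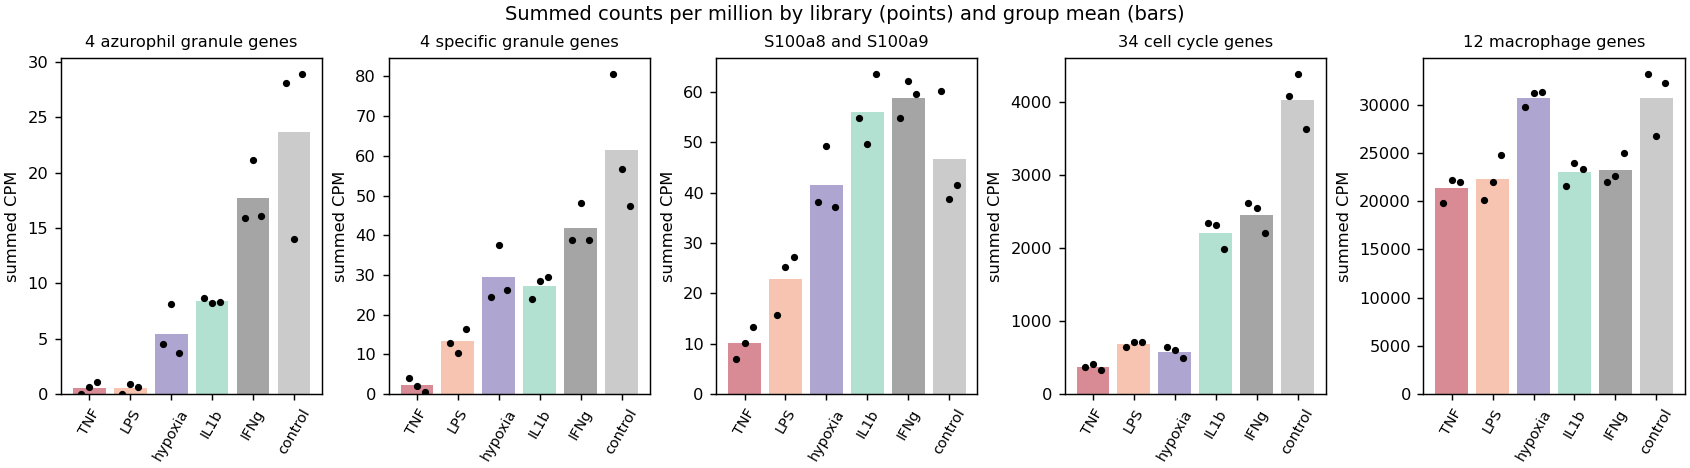
Bars are group means and points are libraries of summed CPM, on linear axes from 0, for the 3 classes of the 10 genes, the cell cycle list and the macrophage list. The specific granule, calprotectin and cell cycle means are lowest in TNF libraries, the azurophil means are 0.563 CPM in TNF and 0.502 in LPS libraries, and the macrophage sum ranges from 19800 to 33200 CPM.

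The genes whose log2 CPM was most like the mean profile of the 10 over the 18 libraries, out of all tested genes outside the list, were Arhgap17 (Pearson r = 0.974), Clec10a (0.971), Fmnl1 (0.968), Ephx1 (0.964), Cotl1 (0.963), Fh1 (0.963), Ighm (0.961), Serinc3 (0.96), Rnase4 (0.958) and Nfam1 (0.958). Clec10a, a galactose-binding lectin of macrophages and dendritic cells, averaged 1.28 CPM in TNF, 3.64 in LPS, 23.1 in hypoxia, 23.5 in IL1b, 36.8 in IFNg and 56.1 CPM in control libraries. Ighm averaged 9.31 CPM in TNF, 81.3 in LPS, 247 in hypoxia, 459 in IL1b, 534 in IFNg and 639 CPM in control libraries. These values describe libraries that share their treatments. After each group's mean was subtracted, the closest genes were others, led by Tma16 (0.796), Stx12 (0.79), Ruvbl1 (0.78) and Galnt3 (0.77), and the 10 genes themselves correlated with their own mean at 0.016 to 0.664.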

How the data were processed

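Each of the 18 deposited tables gave the authors' read count, a width and an RPKM value for 22598 genes. GSNAP and mm10 are named as aligner and build, per the submitters' processing notes. The reads came from stranded poly(A) libraries of 50-base single reads, per the labels' protocols. How reads were assigned to genes, and whether by strand, is not given in the sources used here. Genes that overlap could therefore share reads. Of the widths, 86.7% were multiples of 3, so they were read as coding lengths. RPKM values deposited by the authors implied 22728833 to 39859629 reads per library (51.68 to 56.45% counted in genes) and were also used for levels between genes. Symbols came from GENCODE M21 (22457 matched).

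Counts were tested with edgeR 4.0.16 (R 4.3.3; TMM factors 0.805 to 1.186, default filterByExpr, robust quasi-likelihood) in 1 model with 6 group means, with Benjamini-Hochberg adjustment over 11563 genes and 0.05 as the threshold. SEs come from the fold change and the F statistic. The fit was also run on simulated counts, in which a small set of genes was changed by known folds in hypoxia libraries. All other genes had the same mean in every group. The simulation therefore does not cover genes at 0 in some groups or broad shifts such as those in TNF libraries. Replicates differed beyond sampling noise in every pair (chi-square per degree of freedom 11.2 to 46.6). The labels do not say what a replicate number shares, and 4 of 21 correlations between deviations of same-numbered libraries were over 0.1 (-0.036 to 0.149), so the reported fit has no block. The correlations of profiles used log2 CPM with a prior count of 2.

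The 10 genes, the companion and marker lists and the tests were chosen with earlier results of these data known. Of each list, the text names up to 4 called genes with the largest absolute log2 fold change per comparison described and defining markers near 0, and the 10 genes closest in profile. All 10 promoter windows were matched by symbol in the RefSeq table of GRCm38.p6. Alternatives were RLE and RPKM-total scaling, no filter, DESeq2 1.42.0, a replicate block, fits of only the groups compared, and leaving out libraries. The floors cover counting error only, whereas SDs are between libraries and SEs come from the fit.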

Additional observations from a re-analysis of the deposited data

How the results depend on the processing

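Mmp8 in its 3 comparisons with control and Mpo in hypoxia against control were called under all 15 settings run for each, with adjusted p for Mpo of 4.09e-05 to 0.0443. The number of genes called in hypoxia against IFNg was 0 in the reported fit, 2 with the RPKM totals, 4 with only the groups compared, 1 with DESeq2 and 0 to 1 when libraries were left out. In hypoxia against control it was 2 as reported, 5 with the RPKM totals, 3 with DESeq2 and 2 to 3 when libraries were left out, and in IL1b against control 1 as reported and 3 with only the groups compared. Over the lists, IL1b against IFNg gave 3 called genes, 7 with only the groups compared and 1 to 3 when libraries were left out. The median of the 10 genes, with libraries left out, ran from -5.25 to -3.86 in TNF and from -3.6 to -2.78 in LPS against IFNg. With the replicate number as a block the counts were 2 in hypoxia against control, 1 in IL1b and 1 in IFNg against control, and 0 in both comparisons with IFNg; in 14 of 21 cases, not all, a library correlated best with the one of its own number, and the block changed no call of the 10 genes. The RPKM totals moved the median of all genes by -0.319 in TNF, -0.245 in hypoxia and -0.076 in LPS against IFNg, and by -0.397 in hypoxia, -0.146 in IL1b and -0.152 in IFNg against control.

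Changes of sign were found only in log2 fold changes that were not called. With the RPKM totals they were Ltf at -0.08 and Ngp at -0.07 in IFNg against control, Camp at -0.02 in hypoxia against IFNg and S100a8 at -0.38 in hypoxia against control, and with the block S100a8 at 0 in IL1b against IFNg. When libraries were left out, IFNg against control ran from -0.18 to 0.17 for Elane, -0.34 to 0.33 for Prtn3, -1.02 to 0.33 for Ctsg, -0.14 to 0.35 for Ltf and -0.43 to 0.76 for Ngp. IL1b against control ran from -0.23 to 0.9 for Camp and -0.79 to 0.48 for Ngp, and hypoxia against control from -2.42 to 0.09 for Prtn3, -0.1 to 0.17 for S100a8 and -0.57 to 0.12 for S100a9. IL1b against IFNg ran from -0.25 to 0.15 for S100a8 and -0.17 to 0.03 for S100a9, and hypoxia against IFNg from -2.25 to 0.01 for Prtn3 and -0.08 to 0.43 for Camp. The causes were not tested. At this depth, levels of Elane, Prtn3, Ctsg and Camp near 0.151 to 0.255 CPM rest on 3 counts.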

Other observations

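Markers of the other granulocyte types were low. The 10 eosinophil markers summed to 0 to 2.23 CPM in TNF, 0.927 to 2.53 in LPS, 2.24 to 4.64 in hypoxia, 2.02 to 4.05 in IL1b, 1.94 to 2.81 in IFNg and 4.28 to 7.39 CPM in control libraries. The highest in control libraries were Siglecf at 2.82 ± 2.34 and Ccr3 at 2.38 ± 0.802 CPM. Prg3 and Il5ra had no count in any group, and none of the 3 tested was called in TNF or LPS against IFNg. The 10 mast cell and basophil markers summed to at most 2.32 CPM in a library, with Mcpt4, Tpsb2, Cma1, Ms4a2 and Il4 at 0 in all groups.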
